A study of Mus musculus with 3 samples.

Results

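Ser5-phosphorylated Pol_II was followed at the promoters of protein-coding genes that acquired a Ser5 peak when bone marrow-derived mouse macrophages were stimulated with LPS. A gained promoter peak was a peak of the LPS library that overlapped no peak of the untreated library and lay within 1 kb of an annotated coding start (mm9, GENCODE M1). It also had to hold at least 15 LPS tags and at least 2 times the tags of untreated cells relative to the library totals, with 0 untreated tags set to 0.5 for that rule. Of 49371 LPS peaks on chromosomes 1 to 19 and X, 13705 lay within 1 kb of a coding start, 1324 of those overlapped no untreated peak, 622 of those held at least 15 tags, and 526 met every condition. They lay within 1 kb of a start of 433 genes, 1.94% of the 22342 annotated coding genes. Because the peak lists and the LPS and untreated tags chose these peaks, their LPS to untreated ratios and the ratios over their genes are given as descriptions, with no test.

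The study compared 3 libraries from macrophages derived from the bone marrow of female Fvb mice and grown in L929-conditioned medium and used at the 7th day of differentiation: Ser5 ChIP-Seq of untreated cells, Ser5 ChIP-Seq of cells given LPS at 10 ng/ml for 2 h, and input DNA, which is chromatin sequenced without immunoprecipitation, of untreated cells. LPS (lipopolysaccharide) coats Gram-negative bacteria and activates macrophages. Each condition had 1 library, so no difference has a replicate check, and all intervals are 95% intervals that cover counting error only. PCR duplicates were kept as the files give them, so tags are not independent molecules. The libraries held 7616771 (untreated), 6249819 (LPS) and 7533308 (input) tags on these chromosomes, and values are given as tags-per-million (TPM) of these totals, so that 1 tag was worth 0.131, 0.160 and 0.133 TPM. The aligned tags were 45 bases long in the untreated library, 30 in the LPS library and 36 in the input, and how this difference in length enters the ratios was not tested. The labels name LPS alone for the stimulated library, and the study's text calls the cells of its Ser5 libraries untreated and LPS-treated. A plot of this library in the study names LPS with γIFN (interferon gamma), which itself induces many of the interferon-induced genes described here.

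Ser5 of the repeated tail of the largest Pol_II subunit is phosphorylated by the TFIIH kinase as the polymerase starts to transcribe, so a Ser5 signal is usually strongest at the start of active genes and extends into the gene at highly transcribed loci. LPS is sensed by Tlr4 with Cd14. Its signalling releases NF-kB, activates AP-1 (Fos-Jun) and, through interferon beta, factors that bind the interferon-stimulated response element (ISRE). In macrophages the genes under this control encode cytokines, chemokines, antiviral proteins and enzymes that make prostaglandins and nitric oxide.

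The promoters of 8 genes with gained peaks are shown because they are among the named genes with most LPS tags whose 250 bases before the annotated start hold an ISRE (GAAA, any 2 bases, GAAA) or the stricter of the NF-kB motifs searched (GGGA, any 3 bases, TCC), on either strand. Capitals mark these matches and, at Ccl5, a TATA box (TATAAA on the sense strand). Each runs 5′ to 3′ on the strand of the gene and ends at the base before the start, in mm9 coordinates. The first 4 hold the NF-kB motif. They are Ccl5 (a chemokine for T cells and monocytes, chr11:83344021-83344270, minus strand), Il6 (the cytokine interleukin 6, chr5:30339451-30339700, plus strand), Cxcl1 (a neutrophil chemokine, chr5:91320017-91320266, plus strand) and Tnfsf15 (a TNF family cytokine, chr4:63406148-63406397, minus strand). The other 4 hold 1 or more ISREs. They are Il27 (the p28 subunit of interleukin 27, chr7:133738456-133738705, minus strand), Cybb (the membrane subunit of the phagocyte NADPH oxidase, chrX:9046451-9046700, minus strand), Irgm2 (an immunity-related GTPase, chr11:58028280-58028529, plus strand) and Zbp1 (a sensor of nucleic acids, chr2:173044412-173044661, minus strand).
Ccl5: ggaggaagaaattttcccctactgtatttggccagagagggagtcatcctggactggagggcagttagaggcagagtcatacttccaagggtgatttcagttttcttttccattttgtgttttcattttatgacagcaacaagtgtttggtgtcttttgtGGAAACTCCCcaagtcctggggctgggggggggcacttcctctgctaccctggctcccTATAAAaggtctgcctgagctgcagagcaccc
Il6: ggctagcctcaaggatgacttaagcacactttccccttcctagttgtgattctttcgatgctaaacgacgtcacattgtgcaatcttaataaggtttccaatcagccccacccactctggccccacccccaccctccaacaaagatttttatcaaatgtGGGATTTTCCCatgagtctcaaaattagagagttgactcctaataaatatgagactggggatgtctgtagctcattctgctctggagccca
Cxcl1: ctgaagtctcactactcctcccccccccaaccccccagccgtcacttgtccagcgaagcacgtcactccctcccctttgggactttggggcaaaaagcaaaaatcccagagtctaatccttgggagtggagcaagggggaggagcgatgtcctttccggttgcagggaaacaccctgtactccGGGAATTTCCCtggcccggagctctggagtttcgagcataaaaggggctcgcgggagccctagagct
Tnfsf15: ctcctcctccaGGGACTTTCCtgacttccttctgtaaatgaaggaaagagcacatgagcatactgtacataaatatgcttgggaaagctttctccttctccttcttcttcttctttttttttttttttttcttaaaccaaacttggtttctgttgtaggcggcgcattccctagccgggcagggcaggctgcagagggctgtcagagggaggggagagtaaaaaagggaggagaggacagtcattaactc
Il27: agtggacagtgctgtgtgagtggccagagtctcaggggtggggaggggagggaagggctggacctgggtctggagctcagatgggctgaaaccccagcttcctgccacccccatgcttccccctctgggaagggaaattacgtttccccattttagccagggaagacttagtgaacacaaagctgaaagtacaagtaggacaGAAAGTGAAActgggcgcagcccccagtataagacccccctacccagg
Cybb: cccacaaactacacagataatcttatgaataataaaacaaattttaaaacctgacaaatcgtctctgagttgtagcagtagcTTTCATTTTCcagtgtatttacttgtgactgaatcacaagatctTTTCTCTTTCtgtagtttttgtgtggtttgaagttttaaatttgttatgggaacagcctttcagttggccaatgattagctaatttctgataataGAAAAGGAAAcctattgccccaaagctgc
Irgm2: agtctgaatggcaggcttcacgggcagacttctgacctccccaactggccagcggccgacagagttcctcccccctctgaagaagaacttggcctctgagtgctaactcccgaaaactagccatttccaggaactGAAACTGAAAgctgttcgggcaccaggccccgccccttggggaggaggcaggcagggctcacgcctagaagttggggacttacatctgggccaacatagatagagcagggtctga
Zbp1: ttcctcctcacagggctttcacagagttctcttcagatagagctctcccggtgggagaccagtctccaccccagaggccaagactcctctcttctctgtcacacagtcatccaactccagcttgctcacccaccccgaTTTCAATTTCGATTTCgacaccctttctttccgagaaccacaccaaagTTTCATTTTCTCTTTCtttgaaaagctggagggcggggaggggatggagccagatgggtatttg

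In these windows the NF-kB match lay at -90 to -81 from the start at Ccl5, at -91 to -81 at Il6 (overlapping matches on both strands), at -67 to -57 at Cxcl1 and at -239 to -230 at Tnfsf15. The TATA box of Ccl5 began at -32. The ISRE lay at -48 to -39 at Il27 and at -115 to -106 at Irgm2. The Irgm2 start shown is that of a gained peak of 8 untreated and 92 LPS tags, and the start of its largest gained peak had no ISRE in the same window. Cybb had 3 ISRE matches, the nearest at -29 to -20, and Zbp1 had 4 in a pair of overlapping doublets. A match is a description of the letters and not evidence of binding.

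The gained peaks were mostly small, with a few of very high signal. Median values were 25 tags (4.0 TPM, interval 3.84 to 4.32) in the LPS library, 8 tags (1.05 TPM) in untreated cells and 4 tags (0.531 TPM) in the input. The median LPS to untreated ratio was 4.57 (interval 4.30 to 4.87), and the ratios ran from 2.00 to 380. A ratio of at least 3 was reached by 385 peaks, at least 5 by 229, at least 10 by 90, at least 20 by 43 and at least 50 by 10. For 494 of 526 peaks the interval of the ratio lay above 1, and for 244 it lay above 2. The rule chose peaks by these same counts, which favours intervals above 1, so these numbers are no check of the ratios. By comparison, 9.78% of all LPS peaks at coding starts with at least 15 LPS tags were at least 2 times higher than in untreated cells, a count that the rule itself drew on, and 8.77% were at most 0.5 times. Under 30 LPS tags were held by 314 gained peaks, so counting error is wide for most of them. The peak at Ccl5 alone held 27.0% of the 33402 LPS tags in gained peaks, and the 10 strongest held 43.5%.

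**Figure D1:**
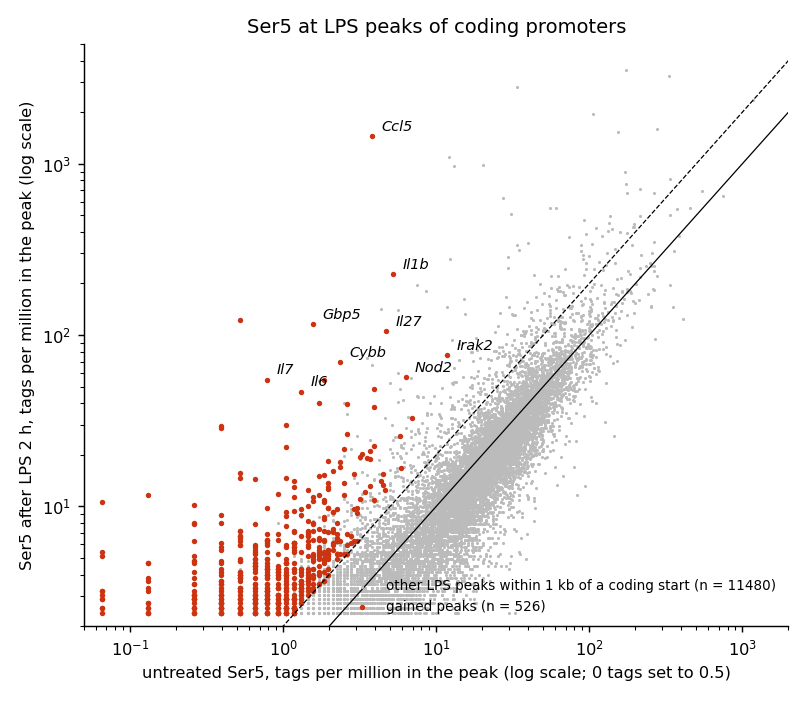
TPM in each LPS peak that lay within 1 kb of a coding start and held at least 15 LPS tags, with untreated Ser5 on the horizontal axis and Ser5 after LPS on the vertical axis (both log scales). Red points are the 526 gained peaks, grey points the other peaks, the solid line is equality and the dashed line a ratio of 2. The gained peaks lie at the low end of the untreated axis, at or under 11.8 TPM, and Ccl5 stands highest at 1446 TPM.

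The untreated signal in the gained peaks was low but in most above the input. The median ratio of untreated Ser5 to input was 1.98 (3.76 when scaled to the tags outside peaks). Relative to the library totals, untreated Ser5 was at or below the input in 115 of 526 peaks. The median ratio of LPS Ser5 to input was 9.64 (interval 9.04 to 10.4). At the 11384 promoter peaks shared with untreated cells the LPS to input median was 17.1, and at the 1148 promoter peaks lost under the mirrored rule it was 2.01. The peaks of both libraries were called against this input, and the rules used those lists. These ratios to input are therefore partly set by the choice of peaks and are a description. Gained peaks were also shorter than shared peaks, with a median of 513.5 bp (interval 484 to 537) against 758 bp, and their median MACS score was 128 against 594. For lost peaks these medians were 448 bp and 122. No input tag fell in 36 gained peaks. No untreated tag fell in 11 of them, which lay at Il12b, Il7, Tgtp1, Slco3a1, Slfn1, Gbp5, Src, Tmcc3, Gtdc1, Itgb8 and Pde10a. Set against a floor of 3 untreated tags, the peak at the start of Il12b (66 LPS tags, 1 input tag) was at least 26.8-fold higher and that at Tgtp1 (32 LPS tags, 0 input tags) at least 13.0-fold higher. With the counting error of the LPS tags included, the lower limits of these ratios were 21.2 and 9.97.

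The thresholds cut through a continuous range. The peaks of Ddx17 and Phlpp2 (each 14 untreated and 23 LPS tags, ratio 2.00) and of Psmb9 (20 and 33, ratio 2.01) lay just inside the ratio rule. Dennd2d (39 and 64 tags), Copa and 2010106G01Rik (each 11 and 18 tags, ratio 1.99) lay just outside it. On the tag rule, Gm17227, Ubl5 and Trim12c had 9 untreated and 15 LPS tags, just inside, and peaks at Lrrc8c, Tmcc3 and Calcrl with 0 untreated and 14 LPS tags were just outside. Exactly 15 LPS tags were held by 37 gained peaks, and 58 candidates with a ratio of at least 2 had 14.

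Most gained peaks did not lie on the start itself. The start lay inside the peak in 133 of 526 (25.3%, interval 21.8 to 29.2), against 82.3% of shared and 40.9% of lost promoter peaks. This contrast is partly set by the rule, which leaves out any LPS peak that overlaps an untreated peak. A peak over a start already occupied in untreated cells could therefore rarely count as gained. Of the others, 144 lay upstream and 249 downstream, with median midpoints at -811 and 890 bp. By annotation of the midpoint, 329 peaks lay in introns, 88 outside coding genes, 61 in untranslated or other exons and 48 in coding exons. In 225 peaks the nearest start was the most 5′ start annotated for the gene (42.8%, against 61.6% of shared peaks). At Cybb, for example, the nearest start lay 18447 bp inside the longest annotated transcript, and the window of 1 kb on each side of its most 5′ start held 0 untreated and 0 LPS tags.

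A gained peak was not always a new site of Ser5, and 3 classes were separated after the values had been seen. In 106 peaks, no start of the gene had an untreated peak within 1 kb. In another 118, only a different start of the gene had one. In the remaining 302 (57.4%, interval 53.2 to 61.6), an untreated peak lay within 1 kb of the same start, next to the gained peak without overlapping it. The median ratio of the peak was 7.57 (interval 6.09 to 9.34) in the first class, 4.87 (4.57 to 5.92) in the second and 3.70 (3.45 to 4.14) in the third. Within 300 bases of the start itself, the median ratio was 6.76 in the first class, with 91 of 94 testable peaks at least 2 times higher, and 3.88 in the second, with 98 of 107. In the third it was 1.53, with 104 of 296 at least 2 times higher and 4 at most 0.5 times. Of wider windows, 1 kb on each side of the most 5′ start of all coding genes, 4.77% were at least 2 times higher and 13.5% at most 0.5 times. The start lay inside the peak in 62 of the 106 and 49 of the 118 peaks, so these values partly recount tags that the rule used. Where an untreated peak already marked the start, 192 of the 302 gained peaks lay downstream of it and 22 contained it.

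**Figure D2:**
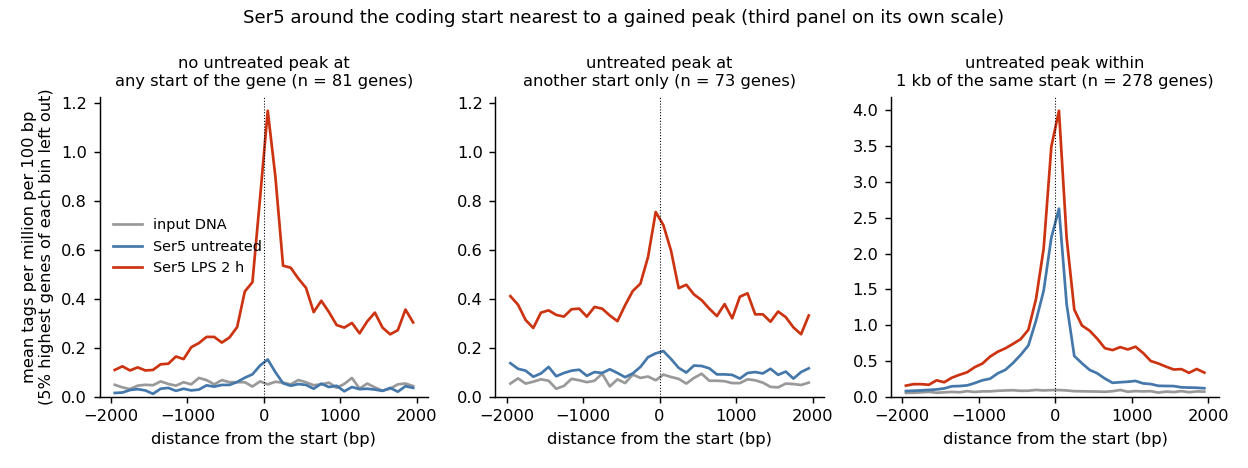
Mean TPM in bins of 100 bp around the coding start nearest to a gained peak, with the highest 5% of genes left out of each bin, for the 3 classes of genes (vertical axes in TPM per bin, the third panel on its own scale). In the first panel LPS Ser5 reaches 1.17 just after the start where untreated Ser5 reaches 0.152, in the second 0.754 against 0.186, and in the third 3.996 against 2.63, with LPS above untreated on both flanks.

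Among the peaks with most LPS tags, those of secreted factors and guanylate-binding proteins led. The peak over Ccl5 (chr11:83338601-83344435) held 29 untreated, 9035 LPS and 20 input tags, that is 3.81, 1446 and 2.65 TPM, a ratio of 380 (interval 264 to 567). Counting 1 tag per position and strand lowered this ratio to 228. The peak at Il1b, the precursor of interleukin 1 beta, held 40, 1413 and 69 tags (ratio 43.1, interval 31.5 to 60.5). Relative to the library totals, untreated cells did not exceed the input there. At Il27 the counts were 36, 656 and 26 (ratio 22.2), at Il6 10, 292 and 10 (35.6), and at Il7, a growth factor of lymphocytes, 6, 342 and 7 (69.5, interval 31.6 to 191). In each of these the untreated count was at most 10 tags above the input or below it, and only the LPS library stood apart.

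Signalling proteins and surface proteins were also among the strongest. Irak2, a kinase downstream of Toll-like receptors, had gained peaks of 90 untreated, 477 LPS and 40 input tags (ratio 6.46) and of 30, 301 and 26 (12.2), both beside an untreated peak. Nod2, the sensor of muramyl dipeptide, held 48, 354 and 60 tags (8.99), and Traf1, an adaptor of TNF receptors, 20, 249 and 7 (15.2). Cybb held 18, 434 and 14 tags (29.4, interval 18.4 to 50.1). Lox, the lysyl oxidase that cross-links collagen, held 30, 239 and 13 tags (9.71) and Mtmr14, a phosphoinositide phosphatase, had 6 gained peaks, the strongest with 53, 206 and 18 tags (4.74). Gm11435 is listed for a peak of 4, 766 and 11 tags that lies directly on the 3′ side of the Ccl5 peak, and these tags were not assigned to either gene.

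**Figure D3:**
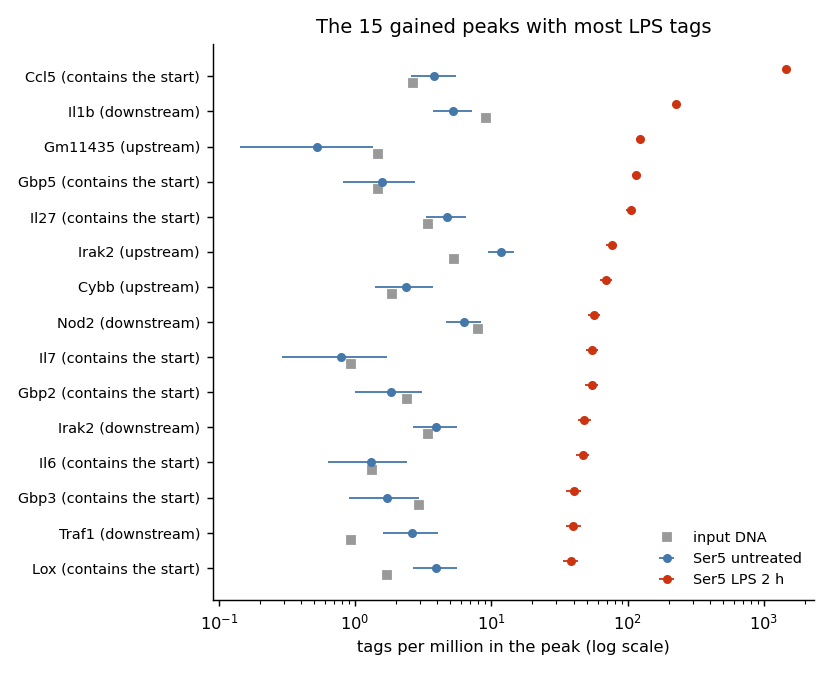
TPM in each library for the 15 gained peaks with most LPS tags (horizontal log axis, bars are exact Poisson 95% intervals, input without bars, the position of the start relative to the peak in brackets). In all 15 the LPS value lies to the right of both other values without overlap of the Ser5 intervals, from 38.2 TPM at Lox to 1446 TPM at Ccl5.

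Genes known for the response to LPS were grouped in 8 lists, which were chosen with earlier results of these data known and so give no independent evidence. Of their 263 annotated genes, 65 had a gained promoter peak (24.7%, interval 19.9 to 30.3), beside 1.94% of all coding genes. Another 148 had a promoter peak already in untreated cells and no gained one, 7 had an LPS peak that missed the tag or ratio rule, and 43 had no peak at any start. The absence of a gained peak therefore does not mean that Ser5 stayed level. Tnf, the cytokine TNF, had an untreated peak and went from 1352 to 6465 tags over 1 kb on each side of its start (ratio 5.83). Cxcl2, a neutrophil chemokine, went from 182 to 2795 (18.7) and Nfkbia, the inhibitor of NF-kB, from 963 to 3735 (4.73). Over all coding genes with at least 15 tags in this window, 4.77% were at least 2 times higher after LPS.

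Of the cytokines, 8 of 33 had a gained peak, and 9 of their 10 peaks belonged to genes with no untreated peak at any start. Il12b, the p40 subunit of interleukins 12 and 23, had a peak of 0 untreated, 66 LPS and 1 input tags over its start and another of 3, 185 and 11 just downstream (ratio 75.2, interval 25.3 to 368). Ifnb1, which encodes interferon beta, had 2, 32 and 6 tags (19.5, interval 4.97 to 168). Tnfsf15 had 6, 61 and 4 tags (12.4), Lif, a cytokine of the interleukin 6 family, 4, 37 and 2 (11.3), and Csf1, the growth factor of macrophages, 5, 22 and 3 (5.36) at a start other than the one marked in untreated cells. At Lif the peak lay at a start other than the most 5′ one, whose own window held 2 untreated and 2 LPS tags. Of the chemokines, 5 of 23 had a gained peak. For Ccl2, Ccl4, Cxcl1 and Cxcl10 it was a small upstream peak beside an untreated one, with 1 and 16, 6 and 21, 4 and 92, and 4 and 37 untreated and LPS tags. Over the window around their starts these 4 genes carried far more signal, from 1481 to 2268 tags at Ccl2 (ratio 1.87), 459 to 5405 at Ccl4 (14.4), 75 to 3479 at Cxcl1 (56.5) and 54 to 2571 at Cxcl10 (58.0).

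Interferon-induced GTPases, which attack the vacuoles of intracellular pathogens, had the highest share of the 8 lists, 6 of 13 genes (46.2%, interval 23.2 to 70.9), but this interval overlaps those of the other 7 lists. Gbp5, Gbp3 and Gbp2 lie together on chromosome 3, and their 5 gained peaks summed to 42 untreated and 1371 LPS tags (ratio 39.8). The main peak of Gbp5 held 12, 724 and 11 tags (73.5, interval 41.8 to 143), that of Gbp2 14, 340 and 18 (29.6) and that of Gbp3 13, 252 and 22 (23.6). The 250 bases before the annotated start nearest to the main Gbp5 peak held both an NF-kB match at -85 to -76 and an ISRE at -173 to -164. Igtp had 3, 56 and 2 tags (22.7), Irgm2 3 peaks, of which the largest held 19, 136 and 7 (8.72), and Tgtp1 0, 32 and 0. These families hold near-identical copies, so their counts rest on the bases at which the copies differ, since the deposited tags are unique matches.

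Of the interferon-induced antiviral genes, 15 of 44 had a gained peak, and another 26 already had an untreated peak without a gained one. Mx1, a dynamin-like GTPase against influenza virus, had 5 gained peaks, the strongest with 4, 98 and 3 tags (29.9, interval 11.3 to 112). Ifi47, another immunity-related GTPase, had peaks of 20, 165 and 10 tags (10.1) and of 15, 115 and 10 (9.34), and Slfn5 16, 101 and 12 (7.69). Zbp1 held 14, 66 and 7 tags (5.75), Trim21, an antibody receptor in the cytosol, 25, 126 and 8 (6.14) and Ifit3 4, 20 and 2 (6.09). Slfn1 held 0, 20 and 4 tags and Slfn4 3, 27 and 2 (11.0). The weakest were Isg15, the ubiquitin-like modifier, with 8 and 15 tags in an upstream peak (2.29, interval 0.909 to 6.22), and Oas3 with 14 and 26 (2.26). Parp9 and Dtx3l, which are transcribed from neighbouring starts, shared a peak of 6, 38 and 1 tags, and Oas1b shared its peak with Oas1c, so these reads were not assigned to either gene.

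Of the 8 lists, transcription factors most often had an untreated peak and no gained one (37 of 45 genes), and 7 had a gained peak. All 14 of their gained peaks lay at genes with an untreated peak at the same or another start, and their median ratio was 5.73. Nfkb1, which encodes NF-kB p50, had 4 gained peaks, with 24 and 121, 22 and 97, 15 and 81, and 10 and 56 untreated and LPS tags. Bcl3, an atypical inhibitor of NF-kB, had 4 peaks with ratios from 2.17 to 9.61, and Batf2, a leucine zipper factor, 4 and 26 tags (7.92). Irf5 had 20 and 37 tags (2.25, interval 1.28 to 4.10) in its gained peak, while 300 bases on each side of the nearest start held 26 and 23.

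Feedback inhibitors had gained peaks at 7 of 30 genes. Peli1, a ubiquitin ligase of the Toll-like receptor pathway, had peaks of 9, 88 and 11 tags (11.9) and of 4, 41 and 5 (12.5). Nfkbiz, a nuclear inhibitor of NF-kB, had 9, 81 and 16 tags (11.0), Cish, which dampens cytokine receptor signals, 12, 67 and 9 (6.80) and Traf1 a further upstream peak of 2, 30 and 3 (18.3). Lower ratios were found at Zc3h12c, an RNase that degrades cytokine mRNAs (5.08 and 3.66), Nfkbib (3.75) and Tnip1 (3.48), the last a partner of the deubiquitinase A20. Among receptors and adhesion molecules 8 of 37 had a gained peak. Clec4e, the receptor Mincle, had 1 untreated and 29 LPS tags upstream (35.3, interval 5.86 to 1443.5), beside a start that went from 97 to 531 tags. Cd274, the ligand of PD-1, had 14, 95 and 18 tags (8.27), Fpr1, a receptor for formylated peptides, 13, 94 and 10 (8.81), Slamf7 11, 78 and 19 (8.64), F3, tissue factor, 6, 40 and 3 (8.12), Cd14 11, 44 and 8 (4.87), and Tlr3 2, 15 and 1 (9.14, interval 2.13 to 82.4). The peak counted for Fpr2 lay within 1 kb of starts of both Fpr2 and Fpr3, with 8 untreated and 25 LPS tags.

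Enzymes and effectors had gained peaks at 9 of 38 genes. Ptgs2, the inducible cyclooxygenase, had 3, 179 and 7 tags (72.7, interval 24.5 to 356), and Ptges, the prostaglandin E synthase that acts after it, had 3 gained peaks of 64, 50 and 30 LPS tags, each with 2 untreated tags. Mmp13, a collagenase, had 1, 73 and 8 tags (89.0, interval 15.5 to 3562), where the width of the interval comes from the lone untreated tag. Lcn2, which binds bacterial siderophores, had 2, 49 and 1 tags (29.9) and Slc7a2, an arginine transporter, 12, 71 and 7 (7.21). Nos2, the inducible nitric oxide synthase, had an upstream peak of 3, 19 and 5 tags (7.72), while the window around its start went from 26 to 408 tags. Bcl2a1a, an inhibitor of cell death with close copies, had 3, 23 and 1 tags (9.34), and Casp4, which binds LPS in the cytosol, peaks with ratios of 5.15 and 4.70. The ratio at Slc2a1, the glucose transporter GLUT1, was 2.82.

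None of the 25 cell cycle and DNA replication genes had a gained peak. A count of 0 allows a share of up to 12% by the floor of 3 (Wilson upper limit 13.3%), which includes the 1.94% of all coding genes. All 25 had an untreated peak, and the window around the start was at most 0.5 times as high after LPS in 11 of them, beside 13.5% of all coding promoter windows counted. Of 13 macrophage identity genes, 2 had a gained peak, Cd14 and Cybb. Summed over the windows at their most 5′ starts, macrophage genes held 817 TPM in untreated cells, 711 after LPS and 36.4 in the input, with Lyz2 (1786 and 529 tags) and Cd68 (909 and 378) highest in untreated cells. The list did not move 1 way: of 12 windows counted, 2 were at least 2 times higher after LPS, Cd14 (454 and 1125 tags) and Emr1 (288 and 728), and 2 were at most 0.5 times. The sums for other cell types were lower: 1.71, 1.28 and 6.24 TPM for 6 T cell genes, 5.25, 4.0 and 7.04 for 6 B cell genes and 1.31, 0.320 and 4.25 for 4 NK cell genes, with Cd3e at 0 and 1, Klrb1c and Klra8 at 0 and 0 and Ly6g at 0 and 0 Ser5 tags. Other genes of these lists held more. The highest untreated windows held 0.525 TPM for T cell, 2.23 for B cell and 0.919 for NK cell genes (highest input windows 1.33, 2.12 and 3.45). Among the T cell genes, 1 had an untreated peak at a start of the gene. The neutrophil and mast cell list went from 3.81 to 10.6 TPM (input 7.70), most of it at Camp, the cathelicidin gene, whose gained peak had 11, 42 and 12 tags (4.65, interval 2.35 to 10.0). The other 5 genes of that list had 0 to 4 tags in each Ser5 library and no peak. The fibroblast and endothelial list held 36.2 and 35.7 TPM, at Pecam1 and Kdr, and gave no gained peak.

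The lists account for 67 of the 433 genes, and 366 genes were on none. Several genes outside them had many gained peaks: Acsl1, a fatty acyl-CoA ligase, and Mtmr14 had 6 each, and Clcn7 and Ms4a7 5 each. At Acsl1 the 6 peaks were small, from 15 to 49 LPS tags. AW112010, a gene known by its clone name, had 8, 187 and 10 tags (28.5, interval 14.2 to 67.0). Counted by gene identifier, neighbours within 100 kb formed 12 runs of 3 or more genes with gained peaks and 36 pairs, while 322 genes stood alone. No such count is given for all coding genes, so whether the runs exceed the ordinary spacing of genes cannot be told. Of the 12 runs, 10 held 3 or more different gene symbols, and 9 of those more than 1 peak. Besides the Gbp genes these runs held the formyl peptide receptors Fpr1, Fpr2 and Fpr3 with Ncrna00085 and Gm7535 on chromosome 17 (60 and 257 untreated and LPS tags in 6 peaks over the 5 genes), Ms4a7, Ms4a4c and Ms4a6c on chromosome 19 (65 and 254 in 7 peaks) and Oas1a, Oas1b, Oas1c and Oas3 on chromosome 5 (35 and 90 in 3 peaks).

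Ser5 over the transcribed region, counted from 1 kb after the most 5′ start to the annotated end, was higher after LPS in most genes with a gained promoter peak. These values come from the same libraries as the rule and are a description. Of the 433 genes, 402 could be counted, since 27 were under 3 kb and 4 had under 15 tags. The region was at least 2 times higher in 188 of them (46.8%, interval 41.9 to 51.7), beside 6.2% of all coding genes counted in the same way. It was at most 0.5 times in 0 of 402, which allows up to 0.746% by the floor of 3 (Wilson upper limit 0.947%), beside 11.3% of all coding genes. The median ratio was 1.86 (interval 1.73 to 2.06) against 0.887 for all coding genes and 0.587 for genes with a lost promoter peak. Leaving the gained peaks themselves out of the region gave 44.4%. By class, the share was 70.1% (47 of 67) with no untreated peak at any start, 65.8% (48 of 73) with one at another start and 40.9% (108 of 264) with one at the same start. The classes use only the gene nearest to each peak, and a gene with several gained peaks can count in more than 1 of them. Their counts therefore do not add up to those of the 402 genes.

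**Figure D4:**
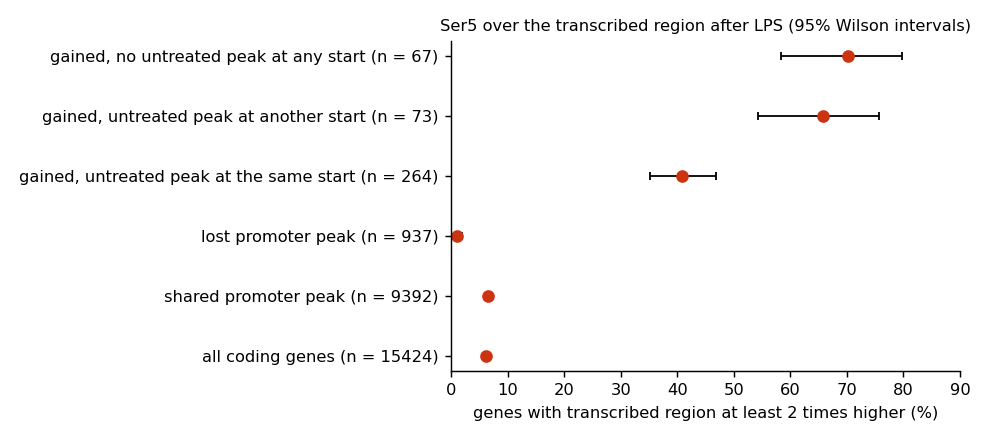
Share of genes whose transcribed region held at least 2 times the TPM after LPS (horizontal axis in percent, points with 95% Wilson intervals, number of genes in brackets). The 3 classes of genes with a gained promoter peak, in which a gene can count more than once, stand at 40.9% to 70.1%. Genes with lost or shared promoter peaks and all coding genes stand at 1.07%, 6.58% and 6.2%.

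The transcribed regions with the highest ratios belonged largely to the cytokine, chemokine and GTPase genes described above. Ccl5 went from 9 to 5739 tags (ratio 777, interval 409 to 1700.4), Il12b from 9 to 643 (87.1), Gbp5 from 28 to 1533 (66.7), Gbp2 from 20 to 827 (50.4) and Mmp13 from 10 to 409 (49.8). Ptgs2 went from 19 to 725, Il1b from 32 to 1099, Il6 from 10 to 277 and Nos2 from 129 to 2824 tags. Here a weak promoter peak did not mean a weak gene, since the gained peak of Nos2 held only 19 LPS tags, beside an untreated peak, and the strongest of Mx1 (153 to 2243 tags over its transcribed region) held 98, at a start with no untreated peak within 1 kb. The region of Art3 (367 to 7726 tags) spans other chemokine genes, Cxcl10 among them, and its tags cannot be assigned to it. Across the 402 genes the ratios of peak and transcribed region had a Spearman rho of 0.54, with both taken from the same pair of libraries. Tags of a gained peak that reaches into the region, as at Ccl5 and Il1b, count in both ratios. Neither rho nor the single-gene values were recomputed without them.

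A gained promoter peak also occurred where the gene as a whole held less Ser5. The region ratio was below 1 in 56 of 402 genes, beside 9537 of 15424 coding genes counted in the same way, whose median was 0.887. The 5 lowest were Micall2 (418 to 198 tags, 0.577), Xrra1 (221 to 105, 0.579), Iqgap3 (348 to 169, 0.592), Trim12c (37 to 18, 0.593) and Ptgir (223 to 109, 0.596). The gained peaks at Micall2 and Iqgap3 held 15 and 17 LPS tags, and the 300 bases on each side of their starts, which already had an untreated peak, went from 89 to 53 and from 48 to 32 tags. Ptgir, the prostacyclin receptor, had 8 untreated and 27 LPS tags in its upstream peak (4.11) and 50 and 40 at the start.

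Of the motifs searched, the ISRE set gained promoters apart from all 3 other sets. The promoter ran from 250 bases before to 50 after the start nearest to the peak, and gained promoters are counted as 412 genes by that start. An ISRE occurred in 47 of 412 (11.4%, interval 8.69 to 14.8), against 2.93% of lost promoters, 3.26% of shared promoters and 3.84% of all coding promoters, and the gained interval does not overlap the others. The stricter NF-kB motif occurred in 6.80% (interval 4.74 to 9.65), against 5.46%, 5.30% and 4.75%, with intervals that overlap. The loose NF-kB motif (GGG, any 5 bases, CC, either strand) occurred in 59.95%, against 61.0%, 71.2% and 55.0%. Its share in gained promoters (interval 55.1 to 64.6) lay below that in shared promoters (70.3 to 72.1) and overlapped that in lost ones. AP-1 (TGANTCA) occurred in 8.25% (interval 5.97 to 11.3), above the 3.97% of shared promoters (3.59 to 4.39) and near the 6.79% of all. CRE (TGACGTCA) and the TATA box, its first letter between -40 and -20, occurred in 0.971% (interval 0.378 to 2.47) and 1.46% of gained promoters, against 2.35% of all for each. In shared promoters CRE occurred in 3.75% (3.38 to 4.16), above the gained interval. The PU.1 motif (GAGGAAGT) occurred in 3.64% against 3.13% of all, and SRF CArG in 0.971% against 1.46%. Every match of the stricter NF-kB motif is also a match of the loose form, and 27 of the 47 promoters with an ISRE held a loose NF-kB match.

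Gained promoters were poorer in CpG than shared ones. The median observed to expected CpG was 0.507 (interval 0.427 to 0.575), against 0.808 (0.804 to 0.815) for shared, 0.579 for lost and 0.542 for all coding promoters. By class it was 0.347 (interval 0.232 to 0.449) with no untreated peak at any start, 0.253 (0.216 to 0.303) with one at another start and 0.635 (0.586 to 0.692) with one at the same start. Under 0.4 were 66.0% of gained promoters with no untreated peak within 1 kb, 42.7% of all gained and 8.32% of shared promoters. The share of all gained promoters (interval 38.0 to 47.5) included the 40.5% of all coding promoters, and lost promoters stood at 35.8%. The stricter NF-kB motif occurred in 10 of 81 promoters with no untreated peak at any start (12.3%, interval 6.85 to 21.3), 2 of 73 with one at another start and 17 of 278 with one at the same start (6.12%, 3.85 to 9.57). A gene with several gained peaks can count in more than 1 class. ISRE shares in these classes were 14.8%, 12.3% and 10.1%, with overlapping intervals.

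**Figure D5:**
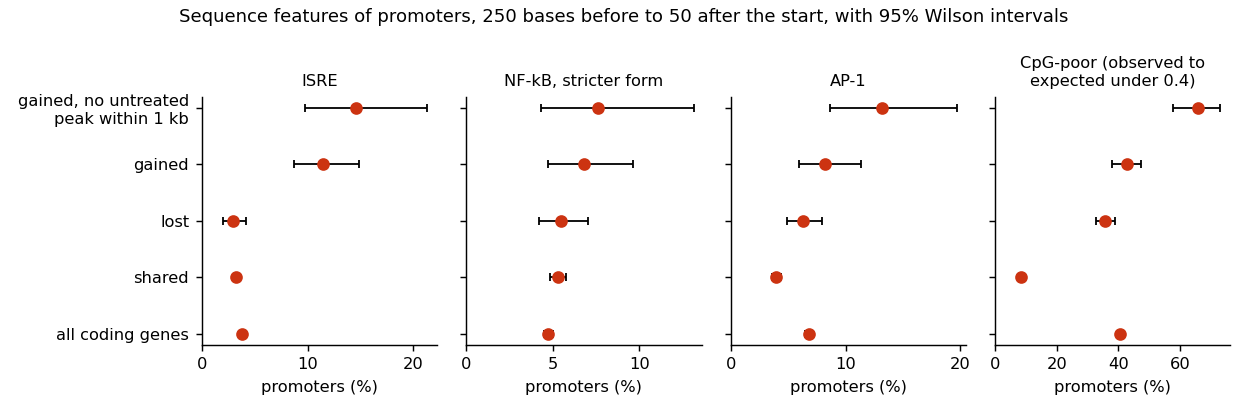
Share of promoters (horizontal axes in percent, 95% Wilson intervals) that hold an ISRE, the stricter NF-kB motif or an AP-1 motif, or whose observed to expected CpG lies under 0.4, for all coding genes, shared, lost and gained promoters, and gained promoters with no untreated peak within 1 kb. ISRE stands at 11.4% of gained promoters and at 2.93% to 3.84% of the other 3 sets, while the NF-kB intervals overlap.

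Gained promoters often had a gained intergenic Ser5 peak nearby. Such peaks, chosen by the same overlap, tag and ratio rules but more than 1 kb from every annotated gene, numbered 1083. At least 1 lay within 50 kb of 97 of 412 gained promoters (23.5%, interval 19.7 to 27.9), against 2.02% of lost, 7.14% of shared and 4.63% of all coding promoters. The share was 37.0% (30 of 81) for promoters with no untreated peak at any start, 15.1% (11 of 73) for those with one at another start and 21.6% (60 of 278) for those with one at the same start. Here too a gene with several gained peaks can count in more than 1 class. Both kinds of peak come from the same pair of libraries, and these shares are a description.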

How the data were processed

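The authors aligned reads trimmed at their 3′ end to mm9 with Bowtie, kept unique matches with at most 2 mismatches for the Ser5 libraries, and ran MACS once per Ser5 library, with the input as control and a p-value limit of 1e-05. Tool versions, and the settings for the input library alone, are not given in the sources used here. The deposited tag files list each aligned tag with its position and strand, duplicates kept. The deposited peak lists give each peak a score of minus 10 times log10 of its MACS p-value. The study's methods assign the tag lengths of the Ser5 libraries the other way round from the files, and the lengths given here are those of the files.

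Tags on chromosomes 1 to 19 and X were counted by their 5′ end in each peak, window or gene and divided by the library total (TPM). The reference sequence and GENCODE M1 are of the same assembly as the files. Each condition had 1 library, so no test was run, and differences were named by size (at least 2 times). Intervals were exact Poisson for counts, exact and conditional on the sum for ratios, Wilson for shares and order statistics for medians. Transcribed regions needed a gene of at least 3 kb and 15 tags over both Ser5 libraries. Motifs were searched by exact letters. Lost peaks followed the mirrored rule, and shared peaks overlapped an untreated peak and held at least 15 LPS tags.

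The members, gene lists and motifs were chosen with earlier results of these data known. Genes were named if their peak was among the 15 with most LPS tags or the 10 with the highest lower limit of the ratio, if they were on a list, if they lay next to a threshold, or if their transcribed region was among the 5 lowest. Some listed transcription factors are counted but not reported here by name. The other genes named, and the 3 classes by untreated peak, were chosen after their values were seen. Of the promoters found by the sequence rule, 8 are printed. Lox and Cd14 lie on chromosome 18 and were not searched for printing, and windows that overlap an annotated exon were left out except Zbp1. The 10 summary values (numbers of peaks and genes, medians and shares) were recomputed under 10 other settings, and the named peaks under the first 3 of them: 1 tag per position and strand, tags moved by 75 bp, scaling to tags outside peaks, stricter peak scores in the LPS list or in both lists, a gap of 500 bp for overlap, peak midpoints, 1 start per gene, a ratio of 3 and a minimum of 30 tags. A setting that left the gained peaks out of the transcribed regions was added after seeing the data. The code (Python 3.11.15, numpy 2.4.6, pandas 2.3.3, scipy 1.17.1, pysam 0.24.0, matplotlib 3.10.9) was tested on simulated data.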

Additional observations from a re-analysis of the deposited data

How the results depend on the processing

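No paired analysis was possible because each condition had 1 library and no replicate number. Most of the 10 summary values are counts or shares, which have no direction that the 10 settings could reverse. The median LPS to untreated ratio could not fall below 2, since each setting chose its peaks again by a ratio of at least 2. Values by list, class or single gene were not recomputed, except that 97 named gained peaks stayed at least 2 times higher under the 3 alternatives that recount or rescale tags. Of these 3, scaling to tags outside peaks could not lower a ratio, since it multiplied each by 1.08. The values that follow moved beyond the interval or, for counts, by over 1.5 times. Counting 1 tag per position and strand gave 435 gained peaks, 414 of them among the 526, and raised the share of transcribed regions at least 2 times higher from 46.8% to 54.0%. Scaling to tags outside peaks multiplied every LPS to untreated ratio by 1.08 (0.11 on the log2 scale) and raised the median ratio of LPS to input to 19.7 and that of untreated to input to 3.76. Requiring a score of at least 100 in the LPS list gave a median ratio of 5.15, 50% of peaks without an untreated peak at the same start (42.6% as reported), 58.4% of transcribed regions and an LPS to input median of 11.5. Requiring it in both lists gave 56.4%, 55.0% and 12.1 for the last 3. Counting an untreated peak within 500 bp as overlapping left 285 peaks and 210 genes, with a median ratio of 5.48, 77.5% without an untreated peak, 60.3% of transcribed regions, an LPS to input median of 11.5 and a CpG median of 0.318. Peak midpoints within 1 kb gave 48.3% without an untreated peak. With 1 start per gene there were 316 peaks, 36.1% without an untreated peak, and a CpG median of 0.615. A ratio of at least 3 gave a median ratio of 5.89, 48.3% without an untreated peak, 58.1% of transcribed regions and an LPS to input median of 10.8. At least 30 LPS tags left 212 peaks and 185 genes, with a median ratio of 5.68, 51.4% without an untreated peak, 72% of transcribed regions, an LPS to input median of 10.5 and a CpG median of 0.349. These stricter rules keep fewer peaks by construction, and the cause of the other shifts was not tested. The shares of promoters with the loose NF-kB motif, an ISRE or a TATA box moved within their intervals under the 10 settings. The shares of the stricter NF-kB motif and of the other motifs were not recomputed.

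At this depth a gained peak of median size rests on 25 LPS and 8 untreated tags. An untreated peak that missed the authors' threshold would make a peak count as gained, and 1 library per condition gives no measure of how often the lists would differ between replicates. The input came from untreated cells alone.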
